A study of Fukomys damarensis and Heterocephalus glaber and Mus musculus with 160 samples.

Results

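The form of liver H3K27ac peaks was compared between 4 rodents: the naked mole-rat (Heterocephalus glaber), the Damaraland mole-rat (Fukomys damarensis), the guinea pig and the mouse. All libraries whose title named liver and H3K27ac were taken, 17 of the 160 samples of the series, of which 116 had a peak list. They came from 5 naked mole-rats, 5 Damaraland mole-rats, 3 guinea pigs and 4 mice, and each library was a different animal. Together the 17 lists held 1544100 peaks, with 56871 to 131043 in a list. All animals were wild-type adults and no treatment was named. The naked mole-rats (NMR30, NMR31, NMR32, NMR34 and NMR35) were males of 13 to 17 months. The Damaraland mole-rats (DMR1, DMR2, DMR3, DMR4 and DMR6) had estimated ages of 36 or 48 months, and DMR6 was the only female. The guinea pigs (GuineaPig7, GuineaPig8 and GuineaPig9) were males of 2.3 months, and the mice (85920, 85921, 85923 and 85924) were C57BL/6J males of 2 months.

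H3K27ac is the acetyl group that enzymes such as p300 and CBP add to lysine 27 of histone H3, and it marks nucleosomes beside active promoters and enhancers. The regulatory element itself is often a stretch with few nucleosomes between acetylated flanks, so a strong element can give a broad signal with its highest point to one side. In liver, the enhancers and promoters of genes for plasma proteins, bile acid synthesis and sugar and fat metabolism are known carriers of the mark. H3K4me3 is found at promoters and H3K4me1 mainly at enhancers, so the overlap with these marks separates the main classes of H3K27ac peaks.

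Several properties of the libraries run alongside the species. All 7 guinea pig and mouse liver libraries have identifiers in one narrow run (do3044 to do3046 and do3128 to do3131). The mole-rat libraries are do16799 to do17603 or begin with vl. Library run and the split of mole-rats from the other rodents therefore cannot be told apart, and neither can age. The labels name more than 1 library kit and sequencing instrument for the series without assigning them to these libraries. The lists hold no numbers of reads, so the depth behind each value is unknown. The tissue label was not checked against liver marker genes, since no annotation of the builds used by the lists was at hand and no gene was placed.

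Peaks were narrowest in naked mole-rats, intermediate in Damaraland mole-rats, and widest in the guinea pig and the mouse. The median peak width was 390, 390, 337, 303 and 319 bases in NMR30, NMR31, NMR32, NMR34 and NMR35. It was 391, 540, 439, 394 and 459 bases in DMR1, DMR2, DMR3, DMR4 and DMR6. The 3 guinea pig libraries had 601, 586 and 576 bases and the 4 mouse libraries 578, 636, 628 and 617 bases. The widest naked mole-rat median lay 1 base under the narrowest Damaraland mole-rat median, and no mole-rat library reached the guinea pig or mouse range. The means over libraries were 348 ± 40.4 bases (SD, n = 5), 445 ± 60.8 (n = 5), 588 ± 12.6 (n = 3) and 615 ± 25.7 (n = 4) in that order of species.

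On the log2 scale the naked mole-rat was below the mouse by 0.83 and below the Damaraland mole-rat by 0.35, as signed differences −0.83 and −0.35. Both passed the threshold of 0.05 (exact permutation p = 0.00794 each, two-sided, adjusted p = 0.0476 by the Benjamini-Hochberg method over 24 comparisons). This unadjusted p is the smallest that these numbers of libraries allow. The naked mole-rat minus guinea pig difference of −0.76, the Damaraland mole-rat minus guinea pig difference of −0.41 and the Damaraland mole-rat minus mouse difference of −0.48 did not pass (adjusted exact permutation p = 0.0612 each), although the libraries did not overlap. The guinea pig minus mouse difference was −0.06 (adjusted exact permutation p = 0.226). With 3 guinea pigs, a comparison cannot reach an unadjusted p below 0.0179 against 5 libraries or 0.0286 against 4. Leaving out any 1 library of a pair ended both calls, with adjusted exact permutation p of 0.0612 to 0.0866 and differences of −0.87 to −0.78 and −0.40 to −0.28, which held their direction. Fewer libraries raise the smallest p that some of the 24 comparisons can reach. The loss of calls therefore does not measure reliance on single libraries. Among the libraries beginning with do, these differences were −0.94 and −0.45 (adjusted exact permutation p = 0.0857 and 0.15). The second set 3 libraries against 3, which did not overlap. Such a comparison cannot reach an unadjusted p below 0.1, so it could not pass.

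**Figure D1:**
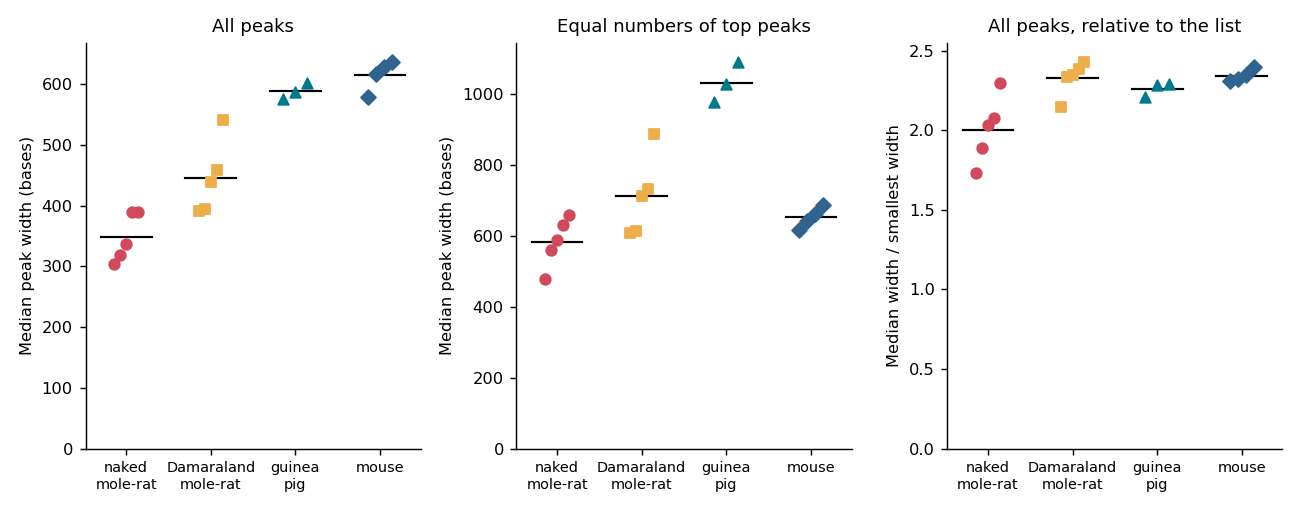
Median peak width of each liver H3K27ac library (points) and its mean by species (bars), for all peaks in bases, for the 56871 highest peaks of each list in bases, and for all peaks divided by the smallest width in the list. With all peaks the 5 naked mole-rat libraries lie lowest at 303 to 390 bases, whereas with equal numbers the 3 guinea pig libraries stand alone at 978 to 1090 bases.

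Each list had a smallest width at which many peaks piled up, and this width followed the species as well. It was 166 to 188 bases in naked mole-rats, 169 to 230 in Damaraland mole-rats, 256 to 263 in the guinea pig and 250 to 271 in mice. Peaks of exactly that width made up 7.28% to 21.7% of naked mole-rat lists, 6.11% to 10.9% of Damaraland mole-rat lists, 5.35% to 6.10% of guinea pig lists and 3.66% to 4.11% of mouse lists. DMR2, with the largest smallest width among the mole-rats (230 bases), also had their largest median width (540 bases). Divided by the smallest width of its list, the median width was 2.00 ± 0.211 in naked mole-rats (n = 5), 2.33 ± 0.107 in Damaraland mole-rats (n = 5), 2.26 ± 0.0464 in guinea pigs (n = 3) and 2.34 ± 0.0384 in mice (n = 4).

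On this relative scale, added after the values were seen, the distance of the naked mole-rat from the mouse was −0.23 and from the Damaraland mole-rat −0.22 (log2, adjusted exact permutation p = 0.0714 each). The Damaraland mole-rat minus mouse difference was −0.01 and the Damaraland mole-rat minus guinea pig difference 0.04, the opposite sign to that in bases. When peaks under 271 bases, the largest of the 17 smallest widths, were left out of every list, the naked mole-rat minus mouse difference was −0.26 and the naked minus Damaraland mole-rat difference −0.14 (adjusted exact permutation p = 0.0612 each, libraries not overlapping). Without the narrowest peaks the differences in bases kept their sign, were smaller and did not pass.

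**Figure D2:**
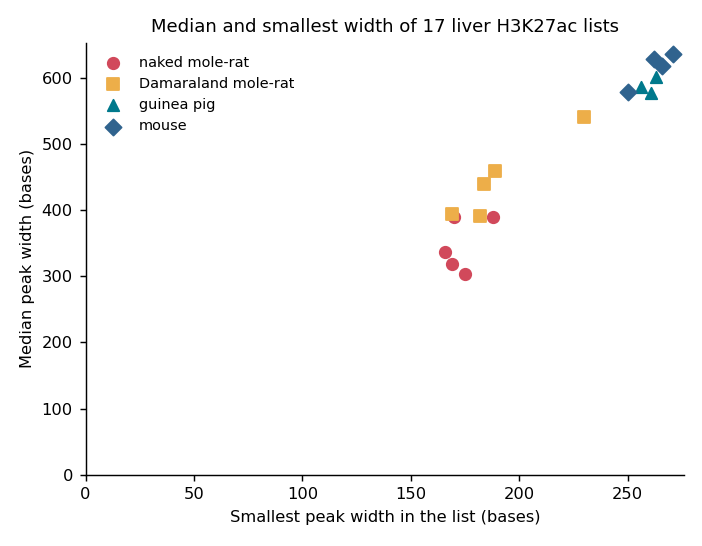
Median peak width against the smallest peak width in the same list, both in bases, for the 17 liver H3K27ac lists (1 point per animal). The mole-rat lists lie at smallest widths of 166 to 230 bases and the guinea pig and mouse lists at 250 to 271 bases, with DMR2 between the main body of mole-rats and the other species.

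Wide peaks were rarest in naked mole-rats, and the ranges of the other species overlapped in part. Peaks of at least 2000 bases were 2.15% to 4.61% of naked mole-rat lists and 5.56% to 10.9% of Damaraland mole-rat lists. They were 12.5% to 13.7% of guinea pig lists and 10.7% to 13.3% of mouse lists, and DMR2 at 10.9% lay above mouse 85920. These wide peaks held 17.6% ± 3.57 of all bases covered in naked mole-rats (n = 5), 30.6% ± 5.83 in Damaraland mole-rats (n = 5), 45.4% ± 1.29 in guinea pigs (n = 3) and 42.3% ± 2.74 in mice (n = 4). The widest single peak of a list had 12992 to 26721 bases in naked mole-rats, 14596 to 23461 in Damaraland mole-rats, 33173 to 46275 in the guinea pig and 28383 to 51980 in mice.

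Equal numbers of peaks changed the order of the species. Mouse lists were the shortest, so taking the 56871 peaks of highest −log10 p from every list removed many weak, narrow peaks from the other species and few from the mouse. The median width was then 559, 659, 588, 479 and 632 bases in the naked mole-rat libraries (order as above) and 733, 887, 614, 713 and 609 bases in the Damaraland mole-rat libraries. It was 1090, 978 and 1027 bases in the guinea pigs and 643, 687, 663 and 617 bases in the mice. Guinea pig peaks were the widest, with no overlap with any other species, and the mole-rat and mouse ranges overlapped.

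The guinea pig minus mouse difference changed from −0.06 with all peaks to 0.66 with equal numbers, and the naked mole-rat minus mouse difference from −0.83 to −0.17. The Damaraland mole-rat minus mouse difference changed sign to 0.11. None of the 24 comparisons passed with equal numbers, where 15 had an unadjusted p under 0.05 and the lowest adjusted exact permutation p was 0.0536. Equal numbers do not mean equal strength: the weakest peak kept had a −log10 p of 7.45 to 10.7 in naked mole-rat lists and 3.39 to 6.61 in mouse lists.

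With only the 10000 highest peaks of each list naked mole-rat peaks were narrower than those of guinea pigs and mice in every library, and Damaraland mole-rat peaks were so except in DMR2. The median width was 1153 to 1484 bases in naked mole-rats, 1474.5 to 2440 in Damaraland mole-rats, 2374 to 2511.5 in the guinea pig and 1966 to 2248 in mice. DMR2 was the library at 2440 bases, wider than all 4 mice and than GuineaPig9, and the other 4 Damaraland mole-rat libraries reached at most 1759.5 bases. In this set the naked mole-rat was narrower than the mouse by 0.71, than the guinea pig by 0.91 and than the Damaraland mole-rat by 0.43, as log2 differences of −0.71, −0.91 and −0.43, and all 3 passed (adjusted exact permutation p = 0.0476 each). The Damaraland mole-rat differences from the guinea pig, −0.49, and from the mouse, −0.28, did not pass (adjusted exact permutation p = 0.114 and 0.155).

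Width fell with each decile of rank in 16 libraries, and in NMR34 it fell down to decile 9 and was 175 bases in deciles 9 and 10. Fold fell with each decile in all 17 libraries. In the strongest decile of a list the mean over libraries of the median width was 1286 bases in naked mole-rats, 1809 in Damaraland mole-rats, 2469 in the guinea pig and 2506 in mice. In the weakest decile it was 190, 224, 300 and 308 bases, close to the smallest widths. Over the peaks of a list the Spearman correlation of width and fold was 0.71 to 0.79 in the 17 libraries. It is a description only, since both values of a peak come from the same reads.

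**Figure D3:**
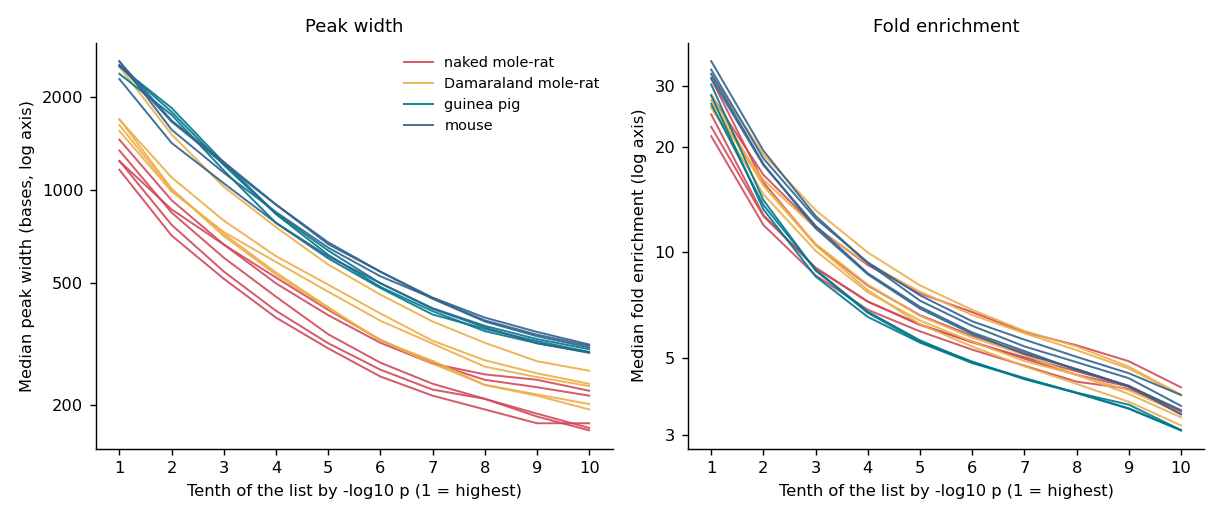
Median peak width in bases and median fold enrichment (both on log axes) in each decile of a list ranked by −log10 p, with 1 line per library coloured by species. The naked mole-rat lines run lowest in width in the strongest deciles, and the 3 guinea pig lines run lowest in fold from the fourth decile on.

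Fold enrichment, the authors' ratio of a peak's signal to its local background, differed less between species than width did. The median fold was 6.94, 5.49, 6.08, 5.90 and 5.76 in the naked mole-rat libraries and 5.84, 5.65, 6.85, 6.03 and 7.22 in the Damaraland mole-rat libraries. It was 5.12, 5.10 and 5.06 in the guinea pigs and 6.84, 6.24, 6.59 and 6.29 in the mice. The guinea pig libraries were the lowest and did not overlap with the other species, and the remaining species overlapped with each other.

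None of the 6 fold comparisons passed, and 3 had an unadjusted exact permutation p under 0.05. The guinea pig was below naked mole-rats, Damaraland mole-rats and mice by 0.24, 0.31 and 0.35 on the log2 scale (adjusted exact permutation p = 0.0612 each). With equal numbers the mouse became the lowest at 6.83 ± 0.504 (n = 4), against 7.62 ± 0.293 in guinea pigs (n = 3), 9.10 ± 0.792 in naked mole-rats (n = 5) and 9.55 ± 0.628 in Damaraland mole-rats (n = 5). In the 10000 highest peaks the median fold was 22.1 to 32.2 over all 17 libraries and the species ranges overlapped. Fold depends on the depth of the library and its input, which the lists do not give.

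The summit is the base of highest signal that the peak caller gives for each peak. Its offset is the distance to the centre of the peak as a percent of the width, 0 at the centre and 50 at an edge. Over all peaks the median offset was higher in the mole-rats: 14.9% to 15.9% in the naked mole-rat and 14.5% to 15.9% in Damaraland mole-rats, against 14.3% to 14.4% in the guinea pig and 13.4% to 13.7% in mice. The naked mole-rat exceeded the mouse by 1.96 percentage points and the Damaraland mole-rat exceeded it by 1.74 (adjusted exact permutation p = 0.0476 each). The differences from the guinea pig, 1.17 and 0.95 points, and the guinea pig minus mouse difference of 0.79 points did not pass (adjusted exact permutation p = 0.0612 each). Without any 1 library of a pair the 2 calls were lost (adjusted exact permutation p = 0.0612 to 0.0857), with differences of 1.85 to 2.11 and 1.57 to 1.92 points. The limit given for left-out libraries under width holds here too.

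The offset differed most among strong, wide peaks. In the 10000 highest peaks the median offset was 20.5%, 19.8%, 19.4%, 18.7% and 20.6% in the naked mole-rat libraries and 20.4%, 16.3%, 21.1%, 21.8% and 19.7% in the Damaraland mole-rat libraries. It was 14.2%, 14.6% and 13.9% in the guinea pigs and 16.1%, 14.1%, 14.8% and 14.8% in the mice. All 10 mole-rat libraries lay above all 7 others, and DMR2 was closest to them. All 4 comparisons of a mole-rat with the guinea pig or the mouse passed in this set, with differences of 4.88 to 5.61 points (adjusted exact permutation p = 0.0476 each).

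The shape behind these medians was a plateau. Except in DMR2, summits of the strong mole-rat peaks were spread almost evenly over the inner part of the peak, while those of guinea pig and mouse peaked at the centre. The middle one of 3 equal parts of the peak held 40.1% to 44.6% of summits in the naked mole-rat and 37.9% to 50.95% in Damaraland mole-rats, against 56.2% to 57.9% in the guinea pig and 52.0% to 57.7% in mice. The 50.95% came from DMR2, whose share was the closest to those of the guinea pig and the mouse. Among peaks 2 to 4 times as wide as the smallest, the offset hardly differed: 16.3% ± 0.652 (n = 5), 15.9% ± 0.555 (n = 5), 15.9% ± 0.176 (n = 3) and 15.9% ± 0.0967 (n = 4). Among peaks of 4 times the smallest width or more it was 21.5% ± 0.639, 21.4% ± 1.83, 16.9% ± 0.0272 and 17.0% ± 0.971 in the same order.

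**Figure D4:**
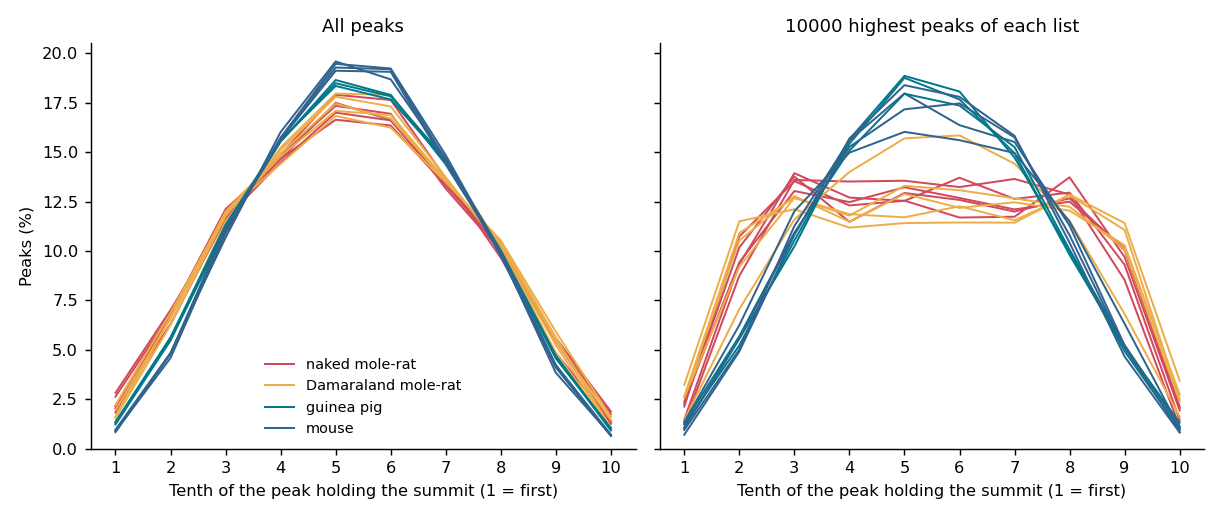
Share of peaks (%) whose summit falls in each of 10 equal parts of the peak from its first to its last base, for all peaks and for the 10000 highest peaks of each list, with 1 line per library. In the right panel the mole-rat lines are flat over the inner parts of the peak, except DMR2, which peaks at the centre like the guinea pig and mouse lines.

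Heart lists show how the offset of strong peaks ran with the smallest width of a list when species was held fixed. In the 6 mouse heart H3K27ac lists, those with smallest widths of 275 and 293 bases had offsets of 14.5% and 13.9% in their 10000 highest peaks. The mouse heart list with the smallest width of 180 bases (a pool of 3 mice by its label) had 17.8%, and those at 209, 215 and 224 bases had 16.0%, 17.1% and 16.8%. In Damaraland mole-rat heart, lists at 243 and 247 bases had 16.6% and 15.8%, and those at 176, 193 and 211 bases had 19.1%, 19.1% and 18.2%. Naked mole-rat heart had 17.7%, 17.4% and 19.5% at 226, 226 and 176 bases, and guinea pig heart had 16.8%, 15.1% and 15.7% at 179, 217 and 229 bases. Over all heart lists, of unlike smallest widths, the offsets of the mole-rats (15.8% to 19.5%) overlapped those of the guinea pig and mouse (13.9% to 17.8%). At like smallest widths the mole-rats were higher. They had 19.5% and 19.1% at 176 bases, against 16.8% at 179 and 17.8% at 180. At 211 bases they had 18.2%, against 16.0% at 209, 17.1% at 215 and 15.1% at 217. At 226 bases they had 17.7% and 17.4%, against 16.8% at 224 and 15.7% at 229. These differences in heart were not tested. DMR2 itself had 16.3% at 230 bases in liver and 19.1% at 176 bases in heart. The part of the smallest width in the liver offset was not tested. Over all peaks, the offset differences of 1.96 and 1.74 points in liver became larger in lists trimmed to a common smallest width, at 2.47 points for naked mole-rat minus mouse and 2.21 for Damaraland mole-rat minus mouse (adjusted exact permutation p = 0.0612 each).

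Spacing was measured as the gap from the end of a peak to the start of the next on the same scaffold. The median gap was 902, 832, 953, 972 and 807 bases in the naked mole-rat libraries and 668, 1611, 974, 613 and 1401 bases in the Damaraland mole-rat libraries. It was 1490, 1672 and 1384 bases in the guinea pigs and 1852.5, 2736, 2631 and 2537.5 bases in the mice. Many neighbours were close together, and gaps under 1000 bases were 51.5% ± 1.16 of all gaps in naked mole-rats (n = 5), 50.6% ± 4.69 in Damaraland mole-rats (n = 5), 45.5% ± 0.905 in guinea pigs (n = 3) and 41.4% ± 1.95 in mice (n = 4).

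Because more peaks give smaller gaps, the test used the median gap divided by the mean gap, which is low where peaks are bunched. The ratio was 0.0468 to 0.0578 in naked mole-rats, 0.0346 to 0.0758 in Damaraland mole-rats, 0.0589 to 0.0650 in the guinea pig and 0.0472 to 0.0673 in mice. None of the 6 comparisons passed, and 1 had an unadjusted exact permutation p under 0.05. The naked mole-rat minus guinea pig difference of −0.24 (log2) came closest, at an adjusted exact permutation p of 0.0612 with no overlap between libraries. The smallest gap in a list was 51 bases in the 13 libraries beginning with do and 74 to 77 bases in the 4 beginning with vl.

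Spacing also turned with the number of peaks. With equal numbers, the guinea pig had the widest median gaps, 5088.5 to 5442 bases, against 2531 to 3335 in mice, and the shares of gaps under 1000 bases were 30.7% to 31.9% and 37.6% to 41.3%. In the 10000 highest peaks, gaps under 1000 bases were 18.4% to 21.4% in the naked mole-rat and 13.6% to 21.1% in Damaraland mole-rats, against 6.45% to 7.28% in the guinea pig and 7.99% to 11.1% in mice. By this share, strong peaks lay close to another strong peak more often in all 10 mole-rat libraries than in the other 7, the lowest mole-rat library being DMR2 at 13.6%. The ratio of median to mean gap did not follow this order. It was highest, the least bunched by this ratio, at 0.256 to 0.315 for naked mole-rat libraries, against 0.238 to 0.248 for guinea pigs, 0.182 to 0.217 for Damaraland mole-rats and 0.160 to 0.182 for mice. The mean gap under it was 104616 to 106937 bases in naked mole-rats and 155314 to 160901 in Damaraland mole-rats. In guinea pigs it was 226169 to 227916 bases and in mice 250010 to 251149. On this ratio the naked mole-rat exceeded the Damaraland mole-rat by 0.53 and the mouse by 0.71 (log2, adjusted exact permutation p = 0.0476 each), and the guinea pig by 0.23 (adjusted exact permutation p = 0.0659). Over all peaks, 70.03% to 70.8% of naked mole-rat peaks lay on scaffolds reaching 1 Mb, against 99.99% in mice, so long gaps are cut short in the naked mole-rat assembly. Missing long gaps lower the mean gap and can raise the ratio. The ratio of the 10000 highest peaks was not taken on long scaffolds alone, so the part of the assembly in it was not tested. With all peaks on such scaffolds alone, the naked mole-rat minus guinea pig difference in the ratio was −0.31 and passed (adjusted exact permutation p = 0.0476).

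Joining peaks up to 200 bases apart left both width calls in place. The shares of peaks within 200 bases of the next were 19.3% to 27.7% in the mole-rats, 19.5% to 19.8% in the guinea pig and 17.6% to 19.5% in mice.

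Replicate libraries overlapped most in the mouse and least in naked mole-rats. The Jaccard index of a pair, its shared bases divided by all bases under a peak in either list, averaged 0.520 over 10 naked mole-rat pairs (range 0.474 to 0.548) and 0.595 over 10 Damaraland mole-rat pairs (0.560 to 0.633). It averaged 0.639 over 3 guinea pig pairs (0.632 to 0.650) and 0.683 over 6 mouse pairs (0.656 to 0.709). With equal numbers of peaks the means were 0.570, 0.626, 0.673 and 0.687, and the order was the same. No test was made, since pairs share libraries and each species has its own assembly.

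Wide, strong peaks were found again almost always and the narrowest ones less often. A peak of at least 1000 bases was overlapped in another library of its species in 97.4% to 99.9% of cases, a peak at the smallest width in 15.3% to 53.1%. In the strongest decile of the lists the species means were 99.8% to 100%. In the weakest decile they were 33.4% in naked mole-rats, 43.0% in Damaraland mole-rats, 44.7% in the guinea pig and 46.1% in mice. Peaks found in no other library of the species were 6.30% to 22.7% of naked mole-rat lists, 2.92% to 14.7% of Damaraland mole-rat lists, 12.8% to 18.3% of guinea pig lists and 7.96% to 10.96% of mouse lists. Such a share falls as more other libraries are there to search, 2 in the guinea pig and 4 in the mole-rats.

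**Figure D5:**
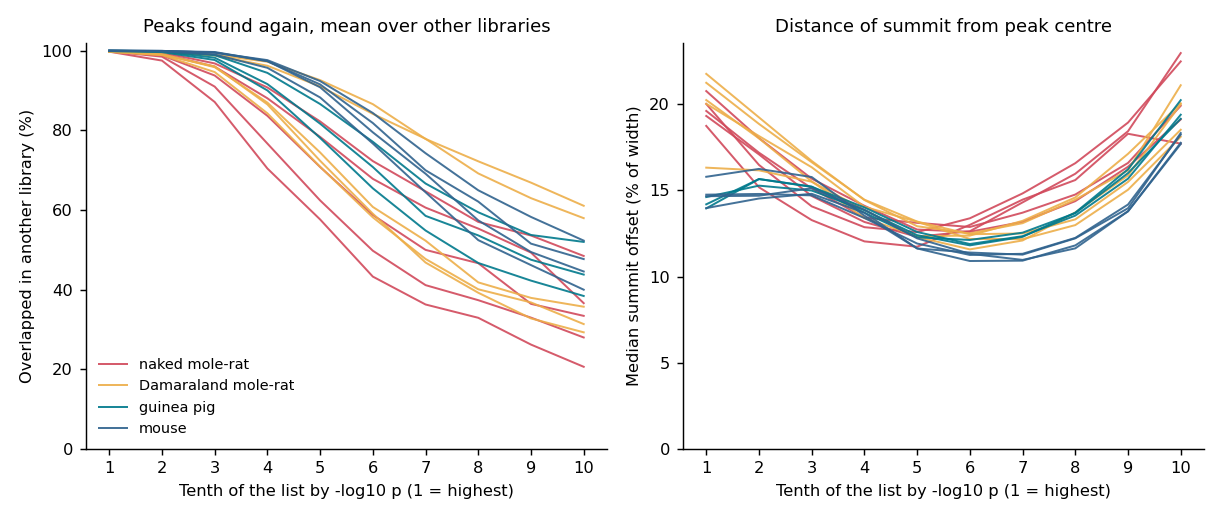
Percent of peaks overlapped by at least 1 base in another library of the same species (mean over the other libraries), and median summit offset in percent of peak width, in each decile of a list ranked by −log10 p, with 1 line per library. Nearly all peaks of the strongest decile were found again in every library, and in that decile the mole-rat offsets lie above those of the guinea pig and mouse, with DMR2 the closest at 16.3%.

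Peaks were matched between 2 libraries where each held the summit of the other, which gave 36645 to 59253 matched peaks in a pair. The median distance between matched summits was 52.6 bases in naked mole-rats (mean over 10 pairs), 54.9 in Damaraland mole-rats (10 pairs), 67.0 in guinea pigs (3 pairs) and 49.3 in mice (6 pairs). Matched summits were farthest apart in guinea pigs, at 65 to 69 bases in its 3 pairs, although their peak overlap was second only to that of mice. The width of matched peaks differed by a median of 0.46 (log2) in naked mole-rats, 0.48 in Damaraland mole-rats, 0.38 in the guinea pig and 0.33 in mice. DMR2 peaks were wider than their matches in the other 4 Damaraland mole-rat libraries, with a median log2 ratio of 0.34 to 0.61. The Spearman correlation of fold over matched peaks was 0.66 to 0.74, 0.71 to 0.75, 0.78 to 0.81 and 0.76 to 0.81 in the same order of species, given as a description.

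Peaks at promoters, taken as those whose summit lay in an H3K4me3 peak of the same animal, were wider and stronger than the rest in every animal. H3K4me3 lists were there for 14 of the 17 animals (DMR1 and DMR4 only among the Damaraland mole-rats). Such peaks were 19.0% to 26.0% of H3K27ac peaks in naked mole-rats, 17.3% and 22.7% in Damaraland mole-rats, 12.4% to 14.8% in the guinea pig and 24.2% to 27.1% in mice. Equal numbers of top peaks in both marks (56871 for H3K27ac, 14782 for H3K4me3) brought the species closer. The shares were then 21.5% to 29.2%, 21.8% and 26.6%, 21.5% to 23.2% and 23.7% to 25.3% in the same order. The H3K4me3 list of NMR30 stood apart with 253457 peaks. Its share by summit over all peaks, 22.0%, was within the range of the other naked mole-rats. By any overlap of 1 base its share was 28.65%, above the 20.7% to 28.1% of the others.

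The median width of peaks with H3K4me3 was 534.5 to 659 bases in the naked mole-rat and 663 and 727 bases in Damaraland mole-rats, against 1561 to 1701 bases in the guinea pig and 1003.5 to 1202 in mice. Peaks without H3K4me3 had 258 to 353, 345 and 348, 511 to 526 and 496 to 536 bases. With all peaks the guinea pig stood out by this contrast. Its promoter peaks were wider by 1.61 to 1.73 on the log2 scale, against 0.86 to 1.21 in the other 11 animals. With equal numbers of top peaks in both marks the guinea pig no longer stood apart from the mouse. The contrast was then 0.90 to 0.97 in the guinea pig and 0.91 to 1.09 in mice, against 0.31 to 0.74 in the mole-rats. Over the 14 animals and all peaks the width difference was 1.18 ± 0.285 (SD) and the fold difference 1.43 ± 0.415, both positive in 14 of 14 animals (exact sign-flip permutation p = 0.000122 each, the smallest that 14 animals allow, adjusted p = 0.000183). With equal numbers the width difference was 0.76 ± 0.267. Over all peaks the summit offset was higher with H3K4me3 by 0.48 ± 0.714 points (exact sign-flip permutation p = 0.0261, adjusted p = 0.0261). It was higher in 10 of 14 animals and lower in the 3 guinea pigs and mouse 85921. Leaving out single animals ended that last call for 4 of the 14, with adjusted exact permutation p of up to 0.0522 and a difference of 0.39 to 0.57 points.

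Within the 10000 highest peaks the width contrast was the other way round. Peaks with H3K4me3 were 61.2% to 81.4% of this set, and those without it were the wider ones in all 14 animals. Median widths with and without H3K4me3 were 1132 to 1334 against 1215 to 1826 bases in the naked mole-rat and 1530 and 1541 against 2019 and 2156.5 bases in Damaraland mole-rats. They were 2137.5 to 2261 against 3560 to 3948.5 bases in the guinea pig and 1820 to 2008 against 2375 to 2846 bases in mice. The offset of the mole-rat peaks was high in both classes, 18.3% to 21.8% with H3K4me3 and 19.5% to 21.8% without it. DMR2, the mole-rat library of lowest offset, had no H3K4me3 list and is not among them. In the guinea pig and mouse it was 13.7% to 15.7% and 14.5% to 16.9%. This comparison within the top peaks was chosen after the values were seen and was not tested.

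Outside promoters, H3K4me1 marked the wider peaks. The summit lay in an H3K4me1 peak but not in an H3K4me3 peak in 39.0% to 52.7% of H3K27ac peaks over the 14 animals, the mark combination of an active enhancer, and in neither in 25.3% to 44.3%. Peaks with H3K4me1 alone had median widths of 300 to 433 bases in naked mole-rats, 408 and 411 in Damaraland mole-rats, 601 to 630 in the guinea pig and 599 to 656 in mice. Those with neither mark had 199 to 299, 265 and 277, 414 to 434 and 402 to 462 bases. All 3 classes were thus narrower in the mole-rats with an H3K4me3 list, DMR2 not among them, than in the guinea pig and the mouse.

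Liver transcription factor lists of 4 mole-rats showed how peak width went with factor summits. CEBPA, FOXA1, HNF4A, HNF6 and RXRA are regulators of hepatocyte genes. The factor lists differed in size, with 19398 to 122941 peaks. Most factor summits lay outside H3K27ac peaks in every list, with 4.42% (HNF4A in NMR30) to 44.0% (RXRA in DMR4) inside. The share of H3K27ac peaks that held a factor summit was 2.29% (HNF4A in NMR30) to 17.8% (RXRA in DMR4) over 16 lists. In the widest quartile of peaks it was 6.49% to 51.03%, in the narrowest quartile 0.359% to 2.61%. Wider peaks offer more bases, but the density of factor summits per kilobase was also higher in the widest than in the narrowest quartile in all 16 lists. For RXRA in DMR4, the retinoid receptor partner of many nuclear receptors, it was 0.383 against 0.0998 summits per kilobase. The median distance of a factor summit to the H3K27ac summit of its peak was 203 to 270 bases in the naked mole-rats and 254 to 321 bases in the Damaraland mole-rats. Peaks with a factor summit were also wider in the Damaraland mole-rats, with medians of 1248 to 1684 bases against 1016 to 1236. As a percent of peak width, factor summits lay 22.9% to 26.1% from the peak centre in naked mole-rats and 21.5% to 23.9% in Damaraland mole-rats (medians). No factor list was analysed here for the guinea pig or the mouse.

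Heart H3K27ac lists were set beside the liver lists to compare the width order in a second tissue. Median widths in heart were 348 to 458 bases in naked mole-rats (n = 3), 342 to 464 in Damaraland mole-rats (n = 5), 411 to 485 in guinea pigs (n = 3) and 355 to 705 in mice (n = 6), so the species overlapped. The naked mole-rat minus mouse difference was −0.83 in liver and −0.27 in heart, and the naked mole-rat minus guinea pig difference −0.76 and −0.16. None of the 6 differences between the tissues passed (exact permutation test, lowest adjusted p = 0.276), and 0 had an unadjusted p under 0.05. In a replicate block of animals that gave both tissues, the liver minus heart contrast differed by −0.60 between naked mole-rat and guinea pig (3 and 3 animals), by −0.30 between the mole-rats (3 and 4) and by −0.30 between Damaraland mole-rat and guinea pig (4 and 3), with adjusted exact permutation p = 0.286 each. No mouse gave both tissues.

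Regions with a peak in every library of their species were counted on scaffolds reaching 100 kb. They numbered 37628 over 5 naked mole-rat libraries and 38363 over 5 Damaraland mole-rat libraries. Mice had 32113 such regions over 4 libraries, and guinea pigs had 48429 over only 3 libraries. The condition is easier to meet with fewer libraries, so these counts do not rank the species. The regions named here had the highest fold or the widest peak, averaged over libraries, on scaffolds reaching 100 kb. They are given as position only, since no gene could be placed. In the mouse (GRCm38) the highest fold was at chr2:31456942-31464639, with 105 ± 6.60 (n = 4) and a single peak of 7586 to 7684 bases in each library. The widest mouse peak was at chr15:58972941-59025500, with 18231, 40816, 48804 and 51980 bases in the 4 libraries, and it was the only one of the 24 named regions in which no H3K4me3 list had a peak. In 85920 that region was split into 13 peaks and in 85924 into 2, so the same stretch gave very different widths.

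In the guinea pig (Cavpor3.0) the highest fold was 124 ± 6.30 (n = 3) on scaffold DS562875.1 at 5087049 to 5089691. The widest peaks lay on scaffold DS562873.1 at 39837578 to 39885149, with 46275, 35939 and 18807 bases. In the naked mole-rat (HetGla_1.0) the highest fold was 102.3 ± 45.3 (n = 5) on scaffold JH167272.1 at 1118897 to 1123890, with a range of 56.7 to 167. Its widest peaks were on scaffold JH168785.1 at 696601 to 737699, with 15537, 26721, 26675, 10858 and 8925 bases in 6 to 18 pieces per library. In the Damaraland mole-rat (DMR_v1.0) the highest fold, 90.5 ± 47.9 (n = 5), belonged to a region of only 531 bases on scaffold KN124710.1 at 442455 to 442985. Its widest peaks, on scaffold KN122459.1 at 4641039 to 4662154, had 14596 to 16320 bases in all 5 libraries. The 4 species were not tested against each other at single regions because no map between the assemblies was used.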

How the data were processed

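The values came from 17 liver H3K27ac ChIP-seq peak lists, with lists of the same animals for H3K4me3, H3K4me1 and liver factors and with H3K27ac heart lists. MACS2 is named as a tool in the submitters' processing notes. Its version and settings, and the aligner, were not given in the sources used. Each list belongs to 1 sample. The assembly of each list is the one its name gives. Each peak has a fold enrichment, a ratio of signal to background computed by the authors' caller, and deposited −log10 p and −log10 q values, the lowest −log10 q being 1.30. These were used as deposited, to describe and rank peaks. The fold was also compared between species, which assumes similar depth and input; neither could be checked.

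From the lists, peak width, gaps to the next peak, summit offset and overlap (at least 1 base) were computed with Python 3.11.15, NumPy 2.4.6 and SciPy 1.17.1. Each library gave 1 value: log2 median width, log2 median fold, log2 of median over mean gap, and median summit offset. Species were compared by two-sided exact permutation of libraries, with Benjamini-Hochberg adjustment over 24 comparisons (6 for liver against heart, 3 for H3K4me3, where exact sign flips over 14 animals were used). The tests were tried on simulated data. A p-value is the share of relabellings of the sampled libraries, or of sign flips, that gave at least as large an absolute difference. Between species it cannot tell species from library run or age. Named regions are joined peaks present in every library of a species on scaffolds reaching 100 kb: the 3 with the highest mean fold and the 3 with the greatest mean widest peak. Alternatives were equal numbers of top peaks, stricter thresholds, other scalings and left-out libraries. The members and the lists were chosen with earlier results of these data known.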

Additional observations from a re-analysis of the deposited data

How the results depend on the processing

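Over 37 results, 622 alternative values were computed: 495 kept their direction and side of the threshold (or stayed within the spread), 59 fell below it, 12 rose past it, 44 changed sign and 12 moved beyond the spread; the cause was not tested. Differences below are on the log2 scale, or in percentage points for the summit offset, and pairs are written first minus second. All p-values are from exact permutation tests and are adjusted unless called unadjusted. Adjustment runs over all comparisons of a setting, so a call can change while its unadjusted p does not.

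With equal numbers of top peaks, signs changed for width (Damaraland mole-rat minus mouse 0.11, guinea pig minus mouse 0.66), fold (naked mole-rat minus mouse 0.41, Damaraland mole-rat minus mouse 0.48, guinea pig minus mouse 0.16), spacing (naked minus Damaraland mole-rat −0.0409, naked mole-rat minus mouse 0.42, Damaraland mole-rat minus mouse 0.46) and offset (naked minus Damaraland mole-rat −0.39). The calls were lost for width (naked minus Damaraland mole-rat −0.28, naked mole-rat minus mouse −0.17) and offset (naked mole-rat minus mouse 1.69, Damaraland mole-rat minus mouse 2.09). Reproducibility moved to 0.570 for naked and 0.626 for Damaraland mole-rats and to 0.673 for guinea pigs. With both tissues at equal numbers, the liver against heart width difference of Damaraland mole-rat minus mouse became 0.0737.

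With the top 10000 peaks, signs changed for width (guinea pig minus mouse 0.21), fold (naked mole-rat minus guinea pig −0.10, Damaraland mole-rat minus guinea pig −0.0292, Damaraland mole-rat minus mouse 0.0550, guinea pig minus mouse 0.0842), spacing (naked mole-rat minus guinea pig 0.23, naked mole-rat minus mouse 0.71, Damaraland mole-rat minus mouse 0.18) and offset (naked minus Damaraland mole-rat −0.0597, guinea pig minus mouse −0.68). New calls were width of naked mole-rat minus guinea pig (−0.91), spacing of naked minus Damaraland mole-rat (0.53) and, with the changed sign, of naked mole-rat minus mouse (0.71), and offset of naked and Damaraland mole-rat minus guinea pig (5.55 and 5.61). For the width call the unadjusted p was 0.0179 both here and with all peaks. Reproducibility of the Damaraland mole-rat was 0.563.

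With −log10 q of at least 4, signs changed for width (guinea pig minus mouse 0.13), fold (naked mole-rat minus mouse 0.0137, Damaraland mole-rat minus mouse 0.0542) and offset (naked minus Damaraland mole-rat −0.0617). Calls were lost for width (naked minus Damaraland mole-rat −0.28, naked mole-rat minus mouse −0.65) and offset (naked mole-rat minus mouse 1.58, Damaraland mole-rat minus mouse 1.64), and guinea pig reproducibility was 0.653.

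With a common smallest width, signs changed for width (guinea pig minus mouse 0.000365), fold (naked minus Damaraland mole-rat 0.0369, naked mole-rat minus mouse 0.26, Damaraland mole-rat minus mouse 0.22) and spacing (naked mole-rat minus guinea pig 0.0286, naked mole-rat minus mouse 0.18, Damaraland mole-rat minus mouse 0.0383). Calls were lost for width (naked minus Damaraland mole-rat −0.14, naked mole-rat minus mouse −0.26) and offset (naked mole-rat minus mouse 2.47, Damaraland mole-rat minus mouse 2.21). Naked mole-rat reproducibility was 0.545, and in both tissues the liver against heart difference of guinea pig minus mouse was −0.0453. Width divided by the smallest width, added after seeing the data, gave −0.22 and −0.23 for the width calls (naked minus Damaraland mole-rat, naked mole-rat minus mouse), both lost, and 0.0417 for Damaraland mole-rat minus guinea pig. Its liver against heart differences were 0.19 (Damaraland mole-rat minus guinea pig), 0.10 (Damaraland mole-rat minus mouse) and −0.0935 (guinea pig minus mouse).

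Among libraries beginning with do, the width calls (−0.45 and −0.94) and offset calls (naked mole-rat minus mouse 1.99, Damaraland mole-rat minus mouse 1.79) were lost, with fewer samples, and fold of naked minus Damaraland mole-rat was 0.0174. The 2 mole-rats had 3 libraries each there, with a smallest possible unadjusted p of 0.1, so their width call could not pass. On scaffolds reaching 1 Mb, calls were gained for naked mole-rat minus guinea pig in width (−0.77), fold (0.24), spacing (−0.31) and offset (1.17) and for width of Damaraland mole-rat minus mouse (−0.47). The unadjusted p of the first, in width, was 0.0179 both here and with all peaks. Comparisons with an unadjusted p under 0.05 numbered 14 in both settings. The median gap not divided by the mean gap passed for naked mole-rat minus guinea pig (−0.76), naked mole-rat minus mouse (−1.44) and Damaraland mole-rat minus mouse (−1.30), and changed sign for naked minus Damaraland mole-rat (−0.14) and guinea pig minus mouse (−0.67). Joining peaks up to 200 bases apart gave spacing of 0.13 and 0.12 for naked and Damaraland mole-rat minus mouse, and guinea pig reproducibility of 0.651. The share of peaks overlapped, in place of shared bases, was 0.671 for naked and 0.739 for Damaraland mole-rats, 0.749 for guinea pigs and 0.794 for mice.

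Leaving out 1 library at a time gave width differences of −0.40 to −0.28 (naked minus Damaraland mole-rat) and −0.87 to −0.78 (naked mole-rat minus mouse), and offset differences of 1.85 to 2.11 (naked mole-rat minus mouse) and 1.57 to 1.92 (Damaraland mole-rat minus mouse). All 4 calls were lost each time, and all 4 differences kept their direction. Fewer libraries raise the smallest p that some comparisons can reach, so these losses do not measure reliance on 1 library. The offset with minus without H3K4me3 was 0.39 to 0.57. Spacing of guinea pig minus mouse was −0.0084 to 0.16, with the sign changed without mouse 85920. Liver against heart for guinea pig minus mouse was −0.0619 to 0.14, with the sign changed without the heart of GuineaPig7 (−0.03) or of mouse 6837 (−0.0619). Guinea pig reproducibility was 0.632 to 0.650. The species share no animals, so the replicate block was possible for liver against heart only. The paired values there were −0.30, −0.60 and −0.30, and nothing passed with or without pairing. The −0.60, from 3 against 3 animals, could not have passed. Counting every line of a list as a peak was not run as its own alternative, because no neighbouring peaks overlapped.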
